A study of Mus musculus with 56 samples.

Results

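The response of ras keratinocytes to 6 h of transforming growth factor β1 (TGF-β1) was set against that of primary keratinocytes, the epithelial cells of the epidermis, over 14 of the 56 arrays of the series. The members were the 7 arrays of Balb/c ras cells and the 7 arrays of Balb/c primary cells on which treated RNA carried Cy5 and untreated RNA Cy3. Both groups were keratinocytes from the skin of newborn Balb/c mice, cultured and given TGF-β1 at 1 ng/ml for 6 h. In the ras group a retrovirus that cannot replicate had carried the Ha-ras gene into the culture 4 days before the experiment. The primary group carried no added gene. Each array paired treated RNA with untreated RNA of the same cell type, so every value is a log2 ratio, of treated over untreated as the labelled channels make likely. The series used several arrays per time point, and nothing says that they came from separate cultures, so p-values measure the spread between arrays, which may be technical. Because no levels were used, neither keratinocyte markers nor the Ha-ras transgene could be checked within a cell type.

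TGF-β1 binds a pair of receptor kinases that phosphorylate SMAD transcription factors, which enter the nucleus and switch genes on or off. In normal keratinocytes the factor is known to stop growth and to raise genes of matrix and adhesion. Ha-ras is an oncogene that drives MAP kinase signalling, and ras keratinocytes have long served as a culture model of the benign stage of mouse skin tumours. The comparison addresses which parts of the TGF-β1 response differ at 6 h between cells with and without the oncogene. The difference given throughout is the ras response minus the primary response on the log2 scale, in which a constant bias of a probe towards 1 dye cancels, while such a bias stays in each response. Which sign is right for the reversed arrays was not settled. Added with a dye term, they left 0 features called in the ras response as deposited and 106 with their sign turned, against 154 without them. The 106 were 38 higher and 68 lower, and the 154 were 121 higher and 33 lower, so the main direction of the ras response depended on this choice.

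No gene differed between the responses past the threshold in a fit that held all 49 arrays of this dye orientation with equal weight. Of 8905 features (6795 named genes and 2110 probes without a single gene symbol), 0 were called higher in ras cells (0.0%) and 0 lower (0.0%) at an adjusted p under 0.05 by limma. At an unadjusted p under 0.05 there were 317 features higher in ras cells (3.56%) and 92 lower (1.03%). Together these were 409 features (4.59%), no more than a threshold of 0.05 passes by chance. The strongest candidate was the chemokine gene Cxcl5, with an adjusted p of 0.417, and the next feature stood at 0.986. The median standard error of a difference was 0.242, so that a typical 95% interval reached 0.49 log2 units to either side. The 14 arrays fitted alone, or scaled to 1 spread, called 0 features higher and 1 lower, Cxcl5 in both. When limma gave more weight to arrays whose values deviated less from the fit, 56 features were called higher and 8 lower. The weights ran from 0.114 for primary replicate 1 to 5.95 for primary replicate 5. The latter had the narrowest ratios of the 14 arrays, with a standard deviation of 0.19. It correlated at 0.117 with the mean of the other primary arrays, over features. How far its narrow ratios set the weighted calls was not tested.

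Several arrays stood apart. On primary replicate 4, genes that rose in ras cells had ratios below 0: the 121 features called higher in the ras response (1.36%) had a median of -0.58 there and medians of 0.17 to 0.61 on the other 6 primary arrays. Primary replicate 1 had 485 of 9596 probes beyond ±4 and a standard deviation of 1.68, against 0.19 to 0.72 on the other primary arrays. Ras replicate 6 correlated at -0.084 with the mean of the other ras arrays, over features. Whether the sign of primary replicate 4 is reversed could not be settled from the labels, and every primary mean and difference over all 14 arrays includes it as deposited. With its sign exchanged, 0 differences were again called by limma, 221 features passed an unadjusted p under 0.05, and 25 features were called in the primary response. Many of the values that it moves are given with and without it.

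The 12 named genes with the smallest p in each direction are called the leading genes here. Upstream sequences of 3 of them are shown: F3, Nt5e and Lamb3. The difference of F3 was called as unlike between 6 and 24 h, and Nt5e and Lamb3 rose in the ras response by more than 1 log2 unit. Each line holds the 250 bases before the RefSeq start on GRCm38.p6. Capitals mark matches, on either strand, to the AP-1 motif TGANTCA, bound by the Fos and Jun factors at the end of MAP kinase signalling, or to the SMAD motif CAGACA.
F3, chr3:121723287-121723536, plus strand: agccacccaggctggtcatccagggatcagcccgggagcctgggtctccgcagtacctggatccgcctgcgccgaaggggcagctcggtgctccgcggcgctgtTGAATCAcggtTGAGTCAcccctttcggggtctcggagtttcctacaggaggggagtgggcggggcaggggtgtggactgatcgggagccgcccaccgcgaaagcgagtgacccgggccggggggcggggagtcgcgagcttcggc
Nt5e, chr9:88327359-88327608, plus strand: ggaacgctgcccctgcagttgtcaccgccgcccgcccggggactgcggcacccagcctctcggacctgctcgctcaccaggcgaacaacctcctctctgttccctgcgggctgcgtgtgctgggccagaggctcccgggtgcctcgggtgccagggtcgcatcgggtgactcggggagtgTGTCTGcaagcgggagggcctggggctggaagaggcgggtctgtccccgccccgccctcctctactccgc
Lamb3, chr1:193301744-193301993, plus strand: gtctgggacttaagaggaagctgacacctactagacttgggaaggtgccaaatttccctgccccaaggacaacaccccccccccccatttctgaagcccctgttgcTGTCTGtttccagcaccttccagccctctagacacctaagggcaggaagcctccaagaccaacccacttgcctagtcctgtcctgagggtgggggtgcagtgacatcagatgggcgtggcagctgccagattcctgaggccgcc
The F3 sequence held 2 AP-1 matches, ending 139 and 128 bases before the start, and 0 SMAD matches. The Nt5e and Lamb3 sequences each held 1 SMAD match, ending 64 and 138 bases before the start, and 0 AP-1 matches. A second RefSeq start of Lamb3 had neither motif in its 250 bases. The same stretch of Cd200, a further leading gene with a ras response above 1 log2 unit, held 0 matches to either motif. That of the leading gene Atf4 held 0 as well, so the sequences shown are those of the scanned genes that held a match. Of 32851 upstream sequences of this length, 6.75% held an AP-1 match and 17.1% a SMAD match, and a match describes these letters, not a binding site.

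Cxcl5, a chemokine that attracts neutrophils, had the smallest p of all features. Its log2 ratio on the 7 ras arrays had a lowest value of -2.29, a median of -2.02 and a highest value of -0.35, against -0.43, 0.33 and 0.77 on the 7 primary arrays. Only the highest ras array, replicate 6, and the lowest primary array, replicate 7, overlapped. The mean was -1.77 ± 0.68 in ras cells and 0.25 ± 0.42 in primary cells (SD, n = 7 each). Cxcl5 fell in ras cells (adjusted p = 0.000989 by limma). The difference of -2.02 ± 0.44 (SE) corresponds to a ras over primary ratio of 0.247 and had a 95% interval of -2.91 to -1.13. It stayed between -2.26 and -1.93 when any single array was left out, and Cxcl5 was called when the 14 arrays were fitted alone (adjusted p = 0.0319 by limma), when arrays were scaled to 1 spread (adjusted p = 0.0334) and with array weights (adjusted p = 0.000267).

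F3 encodes tissue factor, the cell surface starter of blood clotting. Its log2 ratio on the ras arrays ran from 0.13 over a median of 1.32 to 2.54, against -1.83, 0.64 and 0.90 on the primary arrays. All 7 ras arrays were above 0, as were 5 of the 7 primary arrays, and the groups overlapped. The means were 1.41 ± 0.78 in ras cells and 0.23 ± 0.99 in primary cells (SD, n = 7 each). The difference was 1.18 ± 0.32 (SE; adjusted p = 0.989 by limma), and 0.84 without primary replicate 4.

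Nt5e encodes CD73, a surface enzyme that makes adenosine. The ras arrays had 0.47 at the lowest, 1.23 at the median and 1.62 at the highest, against -0.78, 0.42 and 0.74 on the primary arrays. A single ras array, replicate 6, lay within the primary range. The difference was 0.84 ± 0.24 (SE; adjusted p = 0.989 by limma), and 0.65 without primary replicate 4.

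Lamb3, the laminin β3 chain of the laminin that anchors basal keratinocytes, had 0.44, 0.90 and 1.49 as lowest, median and highest log2 ratio in ras cells, against -0.96, 0.14 and 0.89 in primary cells. Its difference was 0.89 ± 0.25 (SE; adjusted p = 0.989 by limma), and 0.70 without primary replicate 4. Clu, which encodes the secreted chaperone clusterin, had 0.79, 2.15 and 2.97 in ras cells, against -1.78, 0.74 and 1.59 in primary cells. Both groups' medians were above 0 and their ranges overlapped. Its difference of 1.53 ± 0.45 (SE; adjusted p = 0.989 by limma) was 1.13 without primary replicate 4.

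Atf4, a transcription factor of the integrated stress response, had 0.09, 0.76 and 1.05 in ras cells, against -0.56, 0.02 and 0.41 in primary cells, a difference of 0.64 ± 0.18 (SE). Sertad4, whose product holds a SERTA domain, was 1 of 3 named genes, all 3 higher in ras cells, whose groups did not overlap (0.0337% of features), and 0 features lay the other way round (0.0%). Its ras arrays had 0.39, 0.47 and 1.17 as lowest, median and highest, against -0.43, -0.04 and 0.25 on the primary arrays. The other two were Prag1, a scaffold of the actin skeleton, and Hip1r, an actin-binding protein of endocytosis, both named after their values were seen. Prag1 ran from 0.45 to 0.97 in ras cells, against -0.39 to 0.40 in primary cells. Hip1r ran from 0.25 to 0.56 in ras cells, against -0.24 to 0.22 in primary cells, a gap of small size. Over 8905 features a few such separations can arise by chance, so the values of these 3 genes are descriptions.

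**Figure D1:**
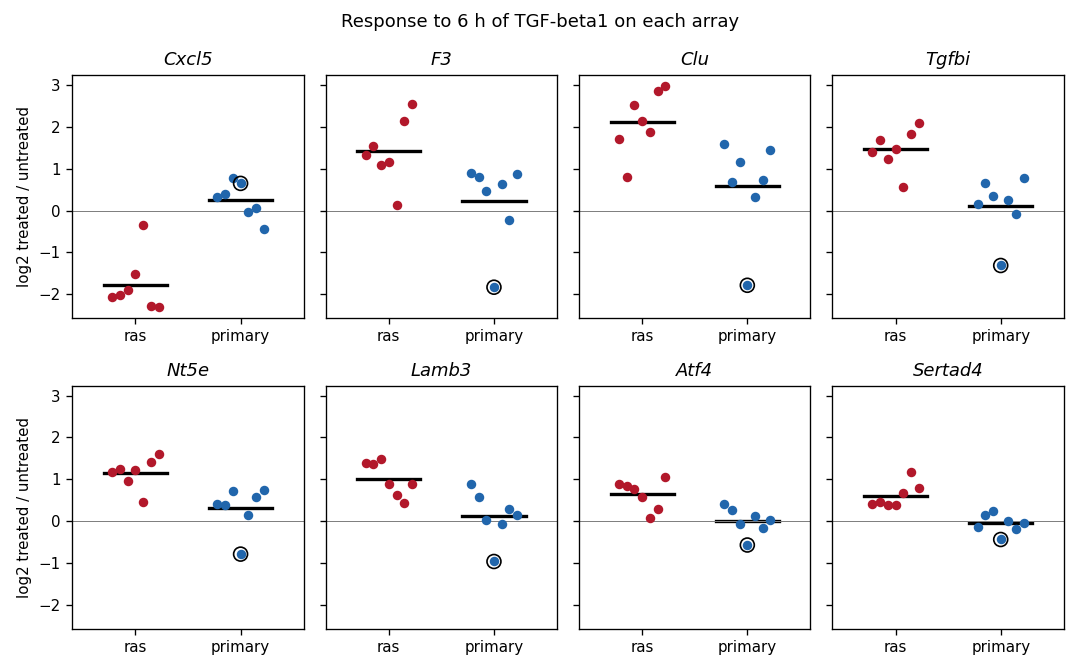
Log2 ratio of treated over untreated RNA (vertical axis) on each of the 7 ras (left) and 7 primary (right) arrays at 6 h for 8 genes; points are arrays, bars are means and a ring marks primary replicate 4. Cxcl5 lies below 0 on all 7 ras arrays, and the ringed array is the lowest primary array for the other 7 genes shown.

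The remaining leading genes higher in ras cells were chosen by their p-values, so their sizes are descriptions. They were Antxr2, an anthrax toxin receptor that binds matrix (difference 0.95), Tuft1, which encodes tuftelin (0.57), Cd200, a surface ligand that restrains myeloid cells (1.08), Iqgap1, a scaffold of actin and MAP kinase signalling (1.10), Zfp36l1, which promotes decay of AU-rich mRNAs (1.28), and Cldn4, a tight junction claudin (0.64). Without primary replicate 4 the Cd200 difference was 0.76. Zfp36l1 leaned on primary replicate 6, at -3.06. All 12 leading higher genes kept a positive difference without primary replicate 4, of 0.45 to 1.33, against 0.57 to 1.53 with it. In the ras response alone, 9 of the 12 were called, all 9 higher, where the background was 1.36% of features called higher and 0.371% lower. The 12 were picked for a high difference on the same ras arrays. A high ras mean was thus part of the choice, and this share is a description only.

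Among the 12 leading genes lower in ras cells, extreme single arrays were frequent. Ints5, a subunit of the Integrator complex, stood at 7.68 and 7.18 on primary replicates 1 and 4 and between -0.26 and 0.19 on the other 5 primary arrays. The neuropeptide gene Tac1 stood at 6.93 and 7.69 on primary replicates 1 and 3, and at -4.06 on ras replicate 3. Capn6, a calpain-like protein, stood at -6.19 on ras replicate 3 and at 5.45 on primary replicate 3. Ifit2, an interferon-induced gene, stood at -5.46 on ras replicate 3 and between -1.25 and -0.10 on the other 6 ras arrays. More evenly spread were Rasa3, a GTPase-activating protein that switches Ras off (difference -0.37 ± 0.13, SE), the glutamate transporter gene Slc1a2 (-0.65 ± 0.25), the nuclear receptor gene Nr2f2 (-0.63 ± 0.25) and Tomm20l, named for its likeness to a mitochondrial import receptor (-0.50 ± 0.20). Syde2 (-1.06), Fibin (-1.45) and Tor1b, a torsin ATPase (-0.64), completed the set. Rasa3 fell in ras cells, with a mean of -0.50 ± 0.27, against -0.13 ± 0.21 in primary cells (SD, n = 7 each), and its ras response had an adjusted p of 0.00207 by limma.

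A panel of 23 measured TGF-β response genes was set out. Of the 23, 18 had a positive difference, with a median of 0.32, and 22 had ras and primary means of the same sign, Cxcl5 being the exception. Over all features 53.7% had a positive difference. In the ras response 15 panel genes were called, 11 of them higher, against 1.36% of all features called higher and 0.371% lower. The panel was chosen with earlier results of these data known, so its counts are descriptions. Without primary replicate 4, 18 again had a positive difference, with a median of 0.31. In the primary response 0 of all features were called higher (0.0%) and 1 lower (0.0112%), which was the panel gene Klf5 (adjusted p = 0.0111 by limma).

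Feedback inhibitors of the pathway had positive differences. Smad7, which blocks the receptors, averaged 0.86 ± 0.42 in ras cells and 0.19 ± 0.56 in primary cells (SD, n = 7 each), a difference of 0.67 ± 0.30 (SE). Skil, a SMAD repressor, averaged 0.96 ± 0.47 in ras cells and 0.52 ± 0.64 in primary cells, and its difference of 0.43 was 0.21 without primary replicate 4. The ubiquitin ligase genes Smurf1 and Smurf2, which mark receptors and SMADs for decay, had differences of 0.41 and 0.30. Klf10, an early TGF-β response factor, was near 0 in both groups, with a difference of 0.10 (95% interval -0.30 to 0.51).

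Tgfbi, a matrix protein named for its induction by TGF-β, had 0.57, 1.48 and 2.09 as lowest, median and highest in ras cells, against -1.31, 0.24 and 0.79 in primary cells. Its difference of 1.36 ± 0.51 (SE) was 1.12 without primary replicate 4. Snai2, a transcription factor of the epithelial to mesenchymal transition, had a difference of 0.58 ± 0.21 (SE), and Bhlhe40, a helix-loop-helix repressor, 0.65 ± 0.29. Pdgfb, the platelet-derived growth factor B chain, had 0.83, 1.47 and 1.86 in ras cells, against -1.09, 1.12 and 1.61 in primary cells. It stood above 0.9 on 6 of 7 primary arrays, and its difference of 0.56 was 0.22 without primary replicate 4. Csf1, a macrophage growth factor, had a difference of 0.15 that became -0.20 without that array.

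The intervals of Cdkn2b, Cdkn1a, Myc, the Id genes, Klf5 and Rhob spanned 0 over all 14 arrays, and that of Ccl20 did not. Cdkn2b, an inhibitor of the cell cycle, averaged 0.88 ± 0.29 in ras cells and 0.47 ± 0.32 in primary cells (SD, n = 7 each), with a difference of 0.42 (95% interval -0.14 to 0.98). Cdkn1a, another inhibitor, had a difference of 0.27 that was 0.04 without primary replicate 4. Myc, which drives growth, averaged -1.18 ± 0.95 in ras cells and -0.73 ± 0.87 in primary cells, a difference of -0.46 (95% interval -1.37 to 0.46) that was -0.19 without primary replicate 4. The Id genes, which encode inhibitors of helix-loop-helix factors, had differences of -0.01 for Id1, 0.22 for Id2 and 0.32 for Id3, all with intervals that span 0. Without primary replicate 4 the differences were 0.32 for Id1, 0.39 for Id2 and 0.52 ± 0.25 (SE) for Id3, the last of these at an unadjusted p under 0.05 and not called after adjustment by limma. Klf5, a factor of proliferating epithelium, averaged -0.60 ± 0.20 in ras cells and -0.90 ± 0.63 in primary cells, a difference of 0.30. Without primary replicate 4 the Klf5 difference was 0.49 ± 0.21 (SE), also at an unadjusted p under 0.05 and not called after adjustment by limma. Rhob, a small GTPase, averaged 0.96 ± 0.28 in ras cells and 0.50 ± 0.69 in primary cells, a difference of 0.46 that was 0.22 without primary replicate 4. The chemokine gene Ccl20, for dendritic cells, averaged -1.27 ± 0.78 in ras cells and -0.47 ± 0.71 in primary cells, a difference of -0.79 (95% interval -1.56 to -0.03) that was -0.60 without primary replicate 4. The ligand gene Tgfb1 had a difference of -0.28 and the mediator gene Smad3 had one of 0.01 (95% interval -1.29 to 1.30).

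**Figure D2:**
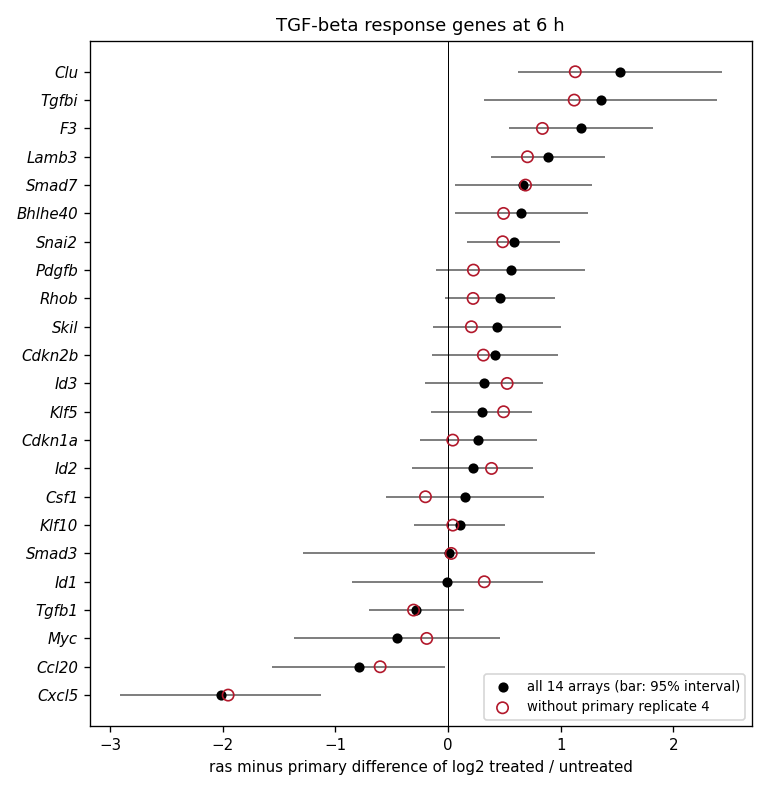
Ras minus primary difference of the log2 response at 6 h (horizontal axis) for 23 TGF-β response genes; filled points use all 14 arrays, bars are 95% intervals and open circles leave out primary replicate 4. Cxcl5 lies at -2.02 and Clu at 1.53, and the open circle of Csf1 falls on the other side of 0.

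Genes that responded in the mean of both cell types leaned towards a larger rise in ras cells. The mean of the ras and primary responses called 143 features higher (1.61%) and 99 lower (1.11%), a choice made after the data were seen and one that keeps any dye bias. Of the 143 higher features, 131 had the larger value in ras cells, with a median response of 0.59 in ras cells and 0.29 in primary cells. The median difference over them was 0.32, and 0.21 without primary replicate 4, where 119 of the 143 were larger in ras cells. Among the lower features no such lean was seen: 52 of the 99 lower features fell further in ras cells, with medians of -0.54 in ras cells and -0.43 in primary cells. Over all features the median difference was 0.02.

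**Figure D3:**
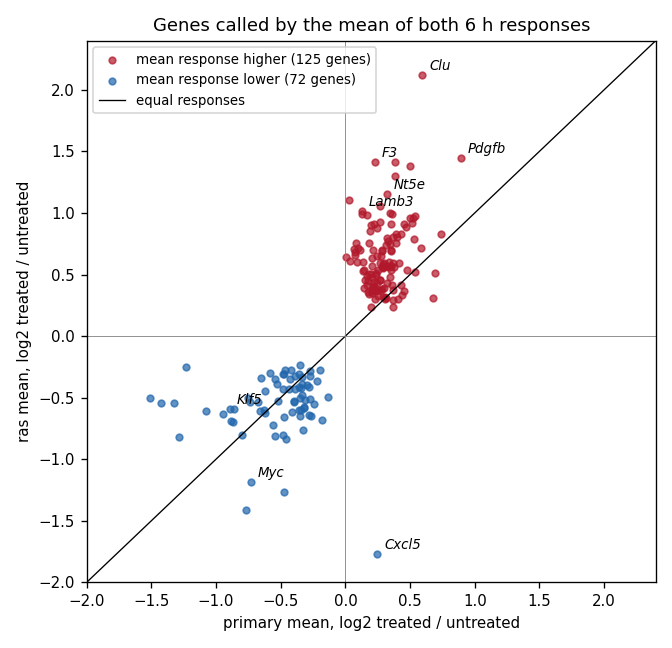
Mean log2 response at 6 h in ras cells (vertical axis) against primary cells (horizontal axis) for the 125 named genes called higher and the 72 called lower by the mean of both responses; the line marks equal responses. Most of the higher genes lie above the line, the lower genes lie on both sides of it, and Cxcl5 lies far below it.

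No member of any gene list was called, and the lists are described by counts and medians beside 53.7% positive and a median of 0.02 over all features. Integrin, focal adhesion and actin genes had the highest median: 28 of 30 were positive, with a median difference of 0.40, and 9 higher and 0 lower at an unadjusted p under 0.05, against 3.56% and 1.03% of all features. The median log2 ratio of the list ran from 0.10 to 0.53 over the ras arrays, against -0.70 to 0.34 over the primary arrays, so the groups overlapped. The lowest primary value was that of replicate 4, and without it the median difference was 0.24. Examples were Pdlim7, a LIM protein of actin fibres (difference 0.86), Acta2, smooth muscle actin (0.58), and Zyx, zyxin of focal adhesions (0.54). TGF-β and SMAD target genes had 23 of 28 positive with a median of 0.29, and 0.22 without primary replicate 4.

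Matrix genes had 30 of 40 positive with a median of 0.23, among them Thbs1, the TGF-β activator thrombospondin 1 (0.70). Keratin, desmosome and junction genes had 20 of 28 positive with a median of 0.23, with Pkp1, a desmosomal plakophilin, at 0.56 and Gja1, a connexin of gap junctions, at 0.49. Without primary replicate 4 the median was 0.16 for matrix genes and 0.18 for keratin, desmosome and junction genes. Unfolded protein response genes had 18 of 19 positive with a median of 0.16, and 14 of 19 without primary replicate 4. Chac1, a glutathione-degrading target of Atf4, led them with 0.30, 0.76 and 1.46 as lowest, median and highest in ras cells, against -0.40, 0.01 and 0.40 in primary cells. Herpud1, a factor of protein removal from the endoplasmic reticulum, had a difference of 0.51 ± 0.16 (SE).

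Mesenchymal shift genes had 11 of 16 positive with a median of 0.25, and 0.21 without primary replicate 4. Oxidative phosphorylation genes had 25 of 31 positive with a median of 0.14, and 0.08 without that array, and proteases and their inhibitors had 20 of 29 positive with a median of 0.13, and 0.06 without it.

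Mitosis genes had a median of 0.03 with 0 of 36 at an unadjusted p under 0.05 in either direction, and DNA replication genes -0.09 with 1 of 34. MYC and ribosome biogenesis genes had a median of -0.06, with Srm, spermidine synthase, at -0.35 and Mxi1, a MYC antagonist, at 0.52. Cytokine, chemokine and NF-kB genes had a median of -0.01 with 5 of 32 lower and 0 higher at an unadjusted p under 0.05. Epidermal differentiation genes had 2 of 13 positive with a median of -0.09, and 7 of 13 with a median of 0.00 without primary replicate 4. The caspase gene Casp9, a starter of apoptosis, had a difference of 0.35. Markers of fibroblasts, immune cells, and endothelial cells and melanocytes had medians of 0.04, -0.09 and -0.07, and 0 of their 10, 17 and 8 measured members passed an unadjusted p of 0.05.

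**Figure D4:**
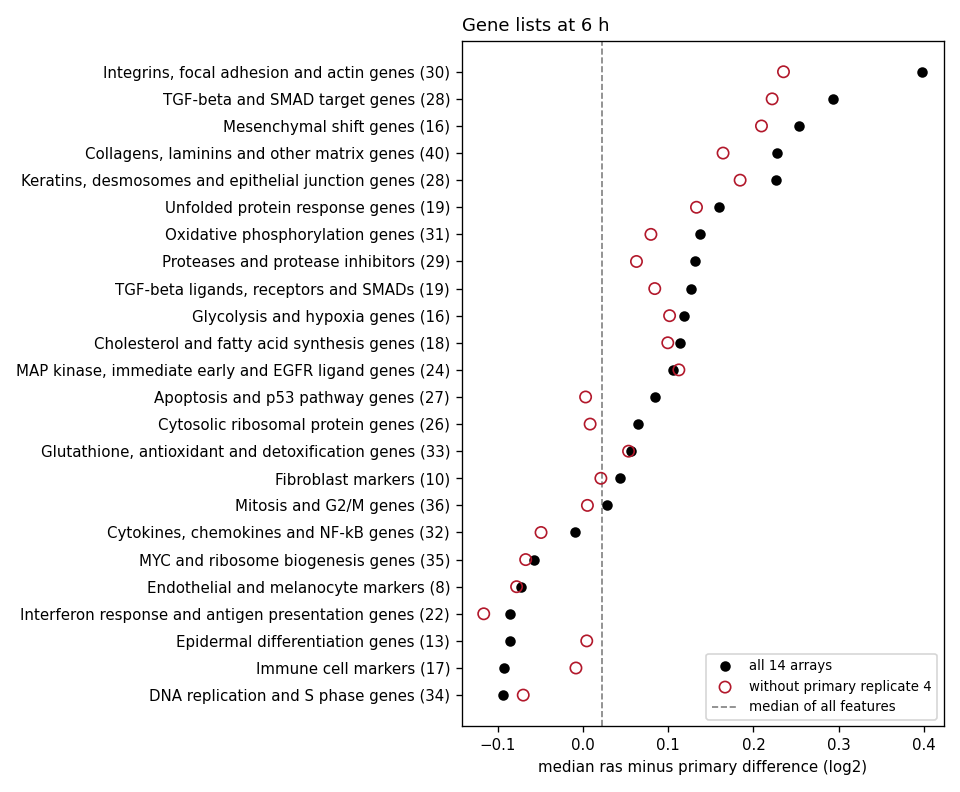
Median ras minus primary difference at 6 h (horizontal axis, log2) of 24 gene lists, with the number of measured genes in brackets; filled points use all 14 arrays, open circles leave out primary replicate 4 and the dashed line is the median of all features. Integrin, focal adhesion and actin genes lie highest at 0.40, and at 0.24 without that array.

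The difference at 6 h was set against the same difference at 1, 24 and 48 h. The comparison with 1 h called 0 of 8905 features (0.0%) by limma, with 212 at an unadjusted p under 0.05. The comparison with 24 h called 1 feature (0.0112%), F3, and that with 48 h called 1 (0.0112%), Mxra8, a cell adhesion protein. For F3 the difference was 0.64 ± 0.34 (SE) at 1 h, 1.18 ± 0.32 at 6 h, -1.33 ± 0.34 at 24 h and -0.13 ± 0.45 at 48 h. The 6 h difference exceeded that at 24 h by 2.51 ± 0.47 (adjusted p = 0.0297 by limma), and by 2.17 without primary replicate 4 of the 6 h arrays (adjusted p = 0.016). Leaving out each of the 26 arrays in turn kept the size between 2.17 and 2.72. The call was lost in 11 cases, without ras replicates 2, 7 or 8 or primary replicate 6 of the 6 h arrays, or ras replicates 1, 3 or 5 or primary replicates 2, 3, 4 or 6 of the 24 h arrays, with adjusted p-values of at most 0.114, and it was also lost with arrays scaled to 1 spread (adjusted p = 0.0845 by limma). For Mxra8 the 48 h arrays set the contrast: its difference was 0.22 at 6 h and -1.42 at 48 h, and the 6 h value exceeded the 48 h value by 1.63 ± 0.31 (SE; adjusted p = 0.0336 by limma). That call was lost in 10 of 21 cases with 1 array left out, where the value lay between 1.50 and 1.72 and the adjusted p was at most 0.166.

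Other leading genes moved with time without a call. For Cxcl5 the difference was -1.30 at 1 h, -2.02 at 6 h, -0.49 at 24 h and -0.32 at 48 h. For Clu it was 0.27, 1.53, 0.69 and -0.65 at these times, and for Lamb3 it was 0.23, 0.89, 0.15 and 0.24. Of the 12 leading higher genes, 10 had their largest difference in size at 6 h, which is the time they were chosen at.

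**Figure D5:**
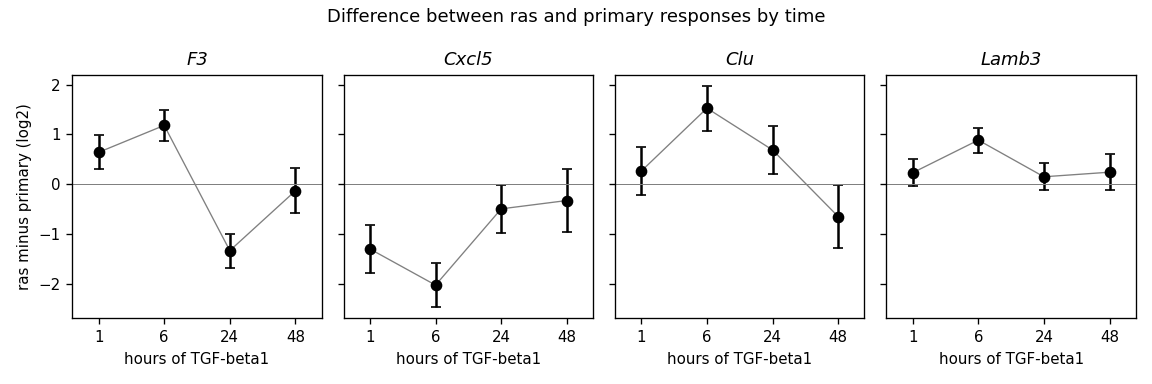
Ras minus primary difference of the log2 response (vertical axis) after 1, 6, 24 and 48 h of TGF-β1 for 4 genes; points are differences of group means and bars are standard errors. F3 is at 1.18 at 6 h and at -1.33 at 24 h, and Cxcl5 is at -2.02 at 6 h.

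The labels carry array database numbers, and arrays whose numbers lie close together were treated as blocks. In 5 blocks both cell types were present, and the differences within blocks ran from 1.52 to 2.46 for Clu, from 0.31 to 1.25 for Nt5e and from 0.16 to 1.35 for Lamb3. The upper end of each of these ranges came from the block of ras replicate 4 and primary replicates 3 and 4, and so rests in part on primary replicate 4. In that block Clu stood at 2.15 on the ras array, at 1.16 on primary replicate 3 and at -1.78 on primary replicate 4. Cxcl5 was negative in all 5 blocks, from -2.32 to -0.33, and F3 was positive in 4 of 5, from -0.51 to 2.36. The values of -0.33 for Cxcl5 and -0.51 for F3 came from the block of ras replicate 6 and primary replicate 5.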

How the data were processed

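The deposited values, log ratios of 9596 probes on each of 56 arrays, were used as log2 values. Their base, and how the authors corrected background and normalized, were not stated in the labels or the file. That they run as treated over untreated is likely, since channel 1 held untreated and channel 2 treated RNA. Spot brightness is unknown, so the number of arrays limits the precision.

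Arrays were centred on their medians and probes of 1 gene symbol were averaged (7486 probes had 1 symbol, 483 several, 1627 none; 7395 of the 7486 matched RefSeq, and 631 genes had several probes). All 49 arrays that were not of reversed dye orientation entered 1 limma fit (version 3.58.1, R 4.3.3) of group means, with two-sided moderated tests and Benjamini-Hochberg adjustment over 8905 features. The 7 reversed arrays were left out because it is not stated whether their sign was turned. The reversed ras array at 6 h correlated at -0.0655 with the mean of the 7 others over features. The fit was tested on simulated data.

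The text names the 12 genes with the smallest p in each direction, a panel of TGF-β response genes, called genes, and some of the 3 members with the smallest p of each list. Members and lists were chosen with earlier results of these data known. Replicate numbers did not pair the arrays: the deviations of same-numbered arrays correlated between -0.183 and 0.137. Of 6 pairs of ras and primary arrays with neighbouring database numbers, 5 correlated between 0.137 and 0.334 and 1 at -0.17, and these numbers entered as blocks in alternatives. Alternatives changed the weights, scaling, centring, limits on extreme values, blocks, reversed arrays and arrays left out.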

Additional observations from a re-analysis of the deposited data

Results flagged for a closer look

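Over 59 genes named and 2 groups of 7 arrays, 23 of 118 pairs of gene and group had 1 array far from the other 6, where chance alone would flag about 1 in 20. On primary replicate 4 these were F3 at -1.83, Nt5e at -0.781, Clu at -1.78, Skil at -0.839, Csf1 at -1.61, Pdgfb at -1.09, Tgfbi at -1.31, Rhob at -0.924 and Smurf2 at -0.395, each below the other primary arrays. On ras replicate 6 they were Tuft1 at -0.053, Cd200 at 0.497, Cxcl5 at -0.352, Skil at -0.005 and Id3 at 0.847. On ras replicate 3 they were Capn6 at -6.19, Tac1 at -4.06, Tor1b at -2.57 and Ifit2 at -5.46. The others were Zfp36l1 at -3.06 and Smad7 at 1.35 on primary replicate 6, Fibin at 5.71 on primary replicate 3, Tor1b at 0.834 on primary replicate 1 and Pdlim7 at 2.17 on ras replicate 7.

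With equal weights, the ras minus primary difference was called as unlike between times for 2 genes. For F3 the 6 h difference exceeded the 24 h difference by 2.51 (adjusted p = 0.0297 by limma). For Mxra8 the 6 h difference exceeded the 48 h difference by 1.63 (adjusted p = 0.0336 by limma). Both calls held with array weights and were lost with arrays scaled to 1 spread. Leaving out 1 array lost the F3 call in 11 of 26 cases and the Mxra8 call in 10 of 21.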

How the results depend on the processing

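The count of called differences at 6 h, 0 with equal weights, was 64 with array weights, 1 with the 14 arrays alone, 1 with arrays scaled to 1 spread and 0 without any single replicate. With the replicate block it was 0 again, so that block changed no call of a difference, though it changed the calls of each response. Of 59 named genes under 27 settings, 22 of 1593 values became called, 20 of them with array weights. The other 1571 stayed within 1 SD between arrays of the first value, and none changed direction past a threshold. Leaving out 1 of 7 arrays cannot move a group mean by 1 SD, so those settings could not fail this rule. A change of sign can pass it: Csf1 went from 0.15 to -0.20 without primary replicate 4. All 408 list medians recomputed stayed within the spread between arrays, but most of them left out 1 array only, which is a weak check.

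The ras response, 154 features, gave 1203 with array weights, 378 with scaled arrays, 629 with fixed blocks, 77 with the replicate block, 246 without ras replicate 6 and primary replicate 1 (chosen after seeing the data), 0 with reversed arrays as deposited, 106 with them turned, and 62 to 184 without 1 replicate. The primary response, 1 feature, gave 0 with the 14 arrays alone, with random blocks, with reversed arrays as deposited and without ras replicate 6 and primary replicate 1; 16 with array weights, 18 with scaled arrays, 388 with fixed blocks, 7 with the replicate block, 3 without primary replicates 1 and 4, 25 with the sign of primary replicate 4 exchanged, 13 with reversed arrays turned, and 0 to 9 without 1 replicate. The comparison of 6 h with 1 h gave 0 without any 1 replicate. That with 24 h, 1 feature, gave 12 with array weights, 0 with scaled arrays and 0 to 1 without 1 replicate. That with 48 h, 1 feature, gave 14 with array weights, 0 with scaled arrays, 0 with no centring, 2 with random blocks, 2 without ras replicate 6 and primary replicate 1, and 0 to 18 without 1 replicate, the 18 without primary replicate 5 of the 48 h arrays. Features without overlap, 3, became 1 with scaled arrays, 5 with no centring, 10 without primary replicates 1 and 4, and 3 to 22 without 1 replicate, the 22 without ras replicate 6. The cause of these changes was not tested, except that fewer arrays make overlap rarer. With each probe on its own, 0 differences were called as well. The direction of the ras response also moved: 121 features were called higher and 33 lower in the main fit, against 234 higher and 395 lower with fixed blocks. The leave-out fits over the 24 h and 48 h arrays were added after seeing the data.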
